A study of Mus musculus with 6 samples.

Results

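The genes described here are 7 factors of the core and general pluripotency machinery of mouse embryonic stem cells: Pou5f1, Sox2, Sall4, Lin28a, Utf1, Nr0b1 and Tcl1. They were taken by gene name from the 17110 genes of the authors' deposited comparison table, and all 7 had a row there. All 7 also had a row, by Ensembl gene ID, among the 17231 rows of the counts table. The embryonic stem cells were of the line called TG2A in the labels, with the genotype given as MERVL::Fluorescent protein, and were grown in serum with leukemia inhibitory factor. By fluorescence-activated cell sorting they were split by DsRed2 signal into positive and negative cells, with 3 samples in each group, collected on different dates. The labels give both groups the same genotype, with the reporter, and separate them by its signal. They do not say whether the line is a single clone.

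MERVL is an endogenous retrovirus whose activity marks the early cleavage embryo and a rare, transient state of cultured embryonic stem cells. The self-renewal of embryonic stem cells rests on a transcription factor circuit in which OCT4, the protein of Pou5f1, and SOX2 bind side by side on composite DNA elements, and SALL4 works with them. The other genes act around that circuit. NR0B1 (DAX1) is an orphan nuclear receptor that restrains transcription and binds OCT4, UTF1 is a chromatin-bound factor at bivalent genes, LIN28A is an RNA-binding protein that blocks maturation of let-7 microRNAs, and TCL1 is a co-activator of the kinase AKT.

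The table gives 1 log2 fold change per gene for the whole comparison, with its standard error (SE), and names neither the groups nor the numerator. It was read as the comparison of the sorted groups, the only groups in the labels. A positive value is one deposited as positive, and which sorted group it favours is not known. The counts table was not used for values, because its 6 columns match no sample label, so no values per sample and no depth per library are given. Cells were sequenced in bulk, so a smaller share of cells with a transcript and less of that transcript per cell cannot be told apart.

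The promoter windows of 4 genes are shown first, namely the 2 core factors and the 2 genes with the largest fold changes, Nr0b1 and Tcl1. They come from RefSeq on the GRCm38.p6 build and are written 5′ to 3′ on the strand of the gene. The submitters' processing notes name GRCm39, so these positions are not those of the deposited values. Each run begins 250 bases before the RefSeq start and stops before the first start annotated by RefSeq or GENCODE M21. Capitals mark matches, on either strand, to ATGCAAA (most of the octamer read by POU factors), CATTGT (read by SOX factors) or AGGTCA (the half-site of nuclear receptors).
Pou5f1, chr17:35505782-35506017, plus strand: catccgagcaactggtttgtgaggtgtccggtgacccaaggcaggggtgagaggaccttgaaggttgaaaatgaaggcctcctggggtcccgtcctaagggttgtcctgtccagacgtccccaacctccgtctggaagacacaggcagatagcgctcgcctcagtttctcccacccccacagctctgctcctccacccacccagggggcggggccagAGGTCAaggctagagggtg
Sox2, chr3:34649745-34649994, plus strand: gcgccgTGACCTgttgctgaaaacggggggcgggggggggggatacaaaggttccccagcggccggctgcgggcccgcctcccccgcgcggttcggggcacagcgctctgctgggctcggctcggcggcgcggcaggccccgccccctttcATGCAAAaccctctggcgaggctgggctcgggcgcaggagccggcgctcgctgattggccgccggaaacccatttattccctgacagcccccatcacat
Nr0b1, chrX:86191525-86191763, plus strand: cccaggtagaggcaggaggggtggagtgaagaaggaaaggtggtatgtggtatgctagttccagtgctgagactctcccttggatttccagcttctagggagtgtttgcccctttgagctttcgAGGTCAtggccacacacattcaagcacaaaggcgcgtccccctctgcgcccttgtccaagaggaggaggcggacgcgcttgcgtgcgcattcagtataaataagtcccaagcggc
Tcl1, chr12:105222794-105222987, minus strand: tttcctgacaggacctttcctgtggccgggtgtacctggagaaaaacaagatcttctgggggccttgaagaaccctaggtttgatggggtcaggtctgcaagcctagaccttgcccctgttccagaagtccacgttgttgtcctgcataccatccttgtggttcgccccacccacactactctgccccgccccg

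RefSeq windows were found for 6 of the 7 genes, 7 windows in all, since Pou5f1 has an additional start within the gene. Sall4 is the other gene. AGGTCA was in 3 of the 7 windows, those of Nr0b1, Sox2 and the Pou5f1 start shown, and in 14.0% of 32851 mouse promoter windows of the same length. In the Nr0b1 window it starts 126 bases before the RefSeq start, and in the Pou5f1 window 33 bases before it. ATGCAAA was in the Sox2 window alone among the 7, 99 bases before the start, and in 4.12% of all windows. CATTGT was in the Lin28a window and in the internal Pou5f1 window, and in 10.7% of all windows. The composite CATTGTNATGCAAA was in 0 of the 7 windows and in 2 of all 32851. The Tcl1 and Utf1 windows held none of these letters. These matches describe the letters of the windows, and binding was not measured.

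The fold changes of the 7 genes ranged from none detectable to nearly 3-fold. In the authors' deposited table, Tcl1 was positive by 2.79-fold and Nr0b1 by 2.57-fold, Sall4 and Pou5f1 were positive by 1.31-fold and 1.20-fold, and Sox2, Utf1 and Lin28a were not distinguishable from 0. At an adjusted p-value under 0.05 over all genes, 4 of the 7 were called positive and 0 negative in the authors' deposited table, where 30.5% of all genes were called, 14.6% positive and 15.9% negative. At an unadjusted p-value under 0.05 from DESeq2, 0 of the 7 were negative as well. All 7 had a mean normalized count of at least 1000, and among the 5780 genes of the authors' deposited table with such a count 31.0% were called, 18.3% positive and 12.6% negative. The median log2 fold change of the 7 genes in the authors' deposited table was 0.26, against 0.057 for those 5780 genes and 0.0097 for all genes. With a limit of 0.5 on the absolute log2 fold change added, 2 of the 7 were called positive in the authors' deposited table. The share was 9.40% of all genes and 6.16% of those averaging 1000 counts or more. Negative calls past that limit made up 12.1% and 5.33% of these genes, and 0 of the 7.

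**Figure D1:**
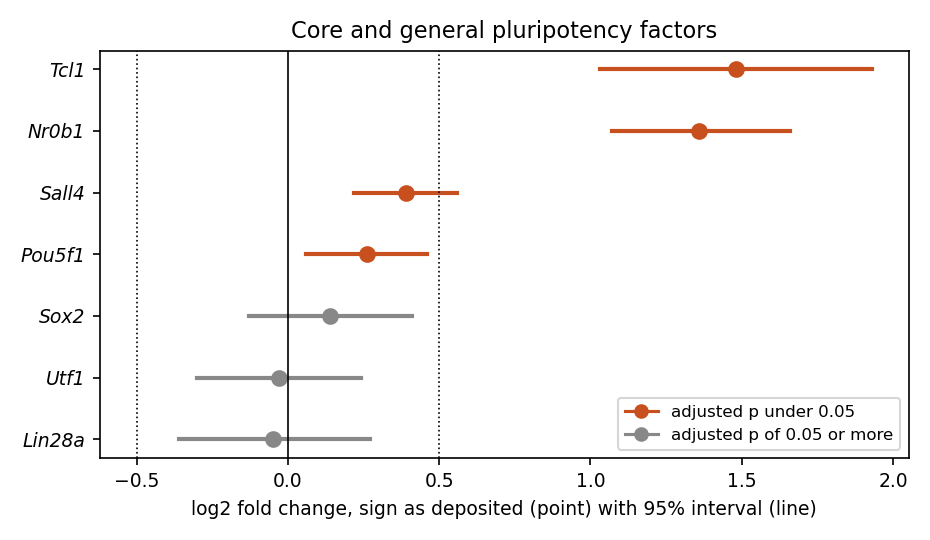
Log2 fold change of each gene in the authors' deposited table (point) with its 95% interval of 1.96 standard errors on either side (line), where dotted lines mark the limit of 0.5 in either direction. Tcl1 and Nr0b1 lie wholly above the limit, and the intervals of Sox2, Utf1 and Lin28a cross 0 and stay within the limit.

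Pou5f1 (ENSMUSG00000024406, chromosome 17) encodes OCT4, whose dose decides between self-renewal and differentiation. It was the most abundant of the 7 by count and per length, with a mean normalized count of 32810 over all libraries in the authors' deposited table, above 99.3% of genes. Its log2 fold change in the authors' deposited table was 0.26 ± 0.10 (SE), with a 95% interval from 0.06 to 0.46 (DESeq2 adjusted p-value 0.0364). At that standard error a value of 0.25 was the smallest that would be called, so Pou5f1 stood just past the threshold. The call was lost after subtracting the median of the ribosomal protein genes (0.17, adjusted p-value 0.215) or when a local quadratic trend on GC content and length was removed (0.22, adjusted p-value 0.0767). The interval excludes a change of 0.5 in either direction. Gm19553, a gene on the opposite strand that overlaps Pou5f1 in GENCODE M21, was not analysed here.

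Sox2 (ENSMUSG00000074637, chromosome 3) encodes the HMG-box partner of OCT4. Its mean normalized count in the authors' deposited table was 10086. The log2 fold change in the authors' deposited table was 0.14 ± 0.14 (SE), with an interval from -0.13 to 0.41 (DESeq2 adjusted p-value 0.491), or 1.10-fold. A change smaller than 0.33 could not have been called at this standard error. Sox2 lies within Sox2ot, a long non-coding gene on the same strand, and without a statement of how reads were assigned the 2 cannot be fully told apart. Sox2ot had a mean normalized count of 80.4 and a log2 fold change of 0.72 ± 0.30 (SE) in the authors' deposited table (DESeq2 adjusted p-value 0.0482).

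Sall4 (ENSMUSG00000027547, chromosome 2) encodes a zinc-finger factor that binds OCT4 and NANOG and recruits the NuRD deacetylase complex. Its mean normalized count in the authors' deposited table was 6131. The log2 fold change in the authors' deposited table was 0.39 ± 0.089 (SE), with an interval from 0.22 to 0.56 (DESeq2 adjusted p-value 9.15e-05). It was thus called positive by its adjusted p-value and fell under the limit of 0.5. With a GC and length trend removed it passed that limit, at 0.54 with the local linear form (adjusted p-value 2.29e-08) and 0.53 with the local quadratic. The standard error of Sall4 was the smallest of the 7. A non-coding transcript on the opposite strand, Gm14261, overlaps Sall4 and had a mean normalized count of only 14.7 in the authors' deposited table.

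Nr0b1 (ENSMUSG00000025056, chromosome X) encodes the orphan nuclear receptor DAX1, which lacks the usual DNA-binding zinc fingers. Its mean normalized count in the authors' deposited table was 2584. The log2 fold change in the authors' deposited table was 1.36 ± 0.15 (SE), with an interval from 1.07 to 1.66 (DESeq2 adjusted p-value 8.40e-18), or 2.57-fold. Among genes averaging 1000 counts or more in the authors' deposited table, 99.4% had a lower fold change. By p-value it ranked 362 of 17110, the first of the 7 genes.

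Tcl1 (ENSMUSG00000041359, chromosome 12) encodes a small protein that binds the pleckstrin-homology domain of AKT and is a target of OCT4 in embryonic stem cells. It was the least abundant of the 7 by count and per length, with a mean normalized count of 1386 in the authors' deposited table. The log2 fold change in the authors' deposited table was the largest of the 7, at 1.48 ± 0.23 (SE), with an interval from 1.03 to 1.93 (DESeq2 adjusted p-value 2.21e-09), or 2.79-fold. That standard error exceeded those of 98.2% of the 500 genes nearest to it in mean count, whose median was 0.11. Tcl1 therefore had both the largest value and the largest standard error of the 7.

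Utf1 (ENSMUSG00000047751, chromosome 7) is a textbook target of OCT4 and SOX2, through a composite element in its 3′ enhancer. It had a mean normalized count of 4522 in the authors' deposited table. Its log2 fold change in the authors' deposited table was -0.03 ± 0.14 (SE), with an interval from -0.30 to 0.24 (DESeq2 adjusted p-value 0.897). Lin28a (ENSMUSG00000050966, chromosome 4) had a mean normalized count of 9704 in the authors' deposited table. Its log2 fold change in the authors' deposited table was -0.05 ± 0.16 (SE), with an interval from -0.36 to 0.27 (DESeq2 adjusted p-value 0.873). Both intervals exclude a change of 0.5 in either direction. The sign of both values turned, to 0.08 for Utf1 and 0.03 for Lin28a, when a local linear trend on GC content and length was removed, without a call on either side. The longest transcript of Utf1 has a GC content of 63.5%, the highest of the 7, against a median of 49.7% over the genes of the table.

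**Figure D2:**
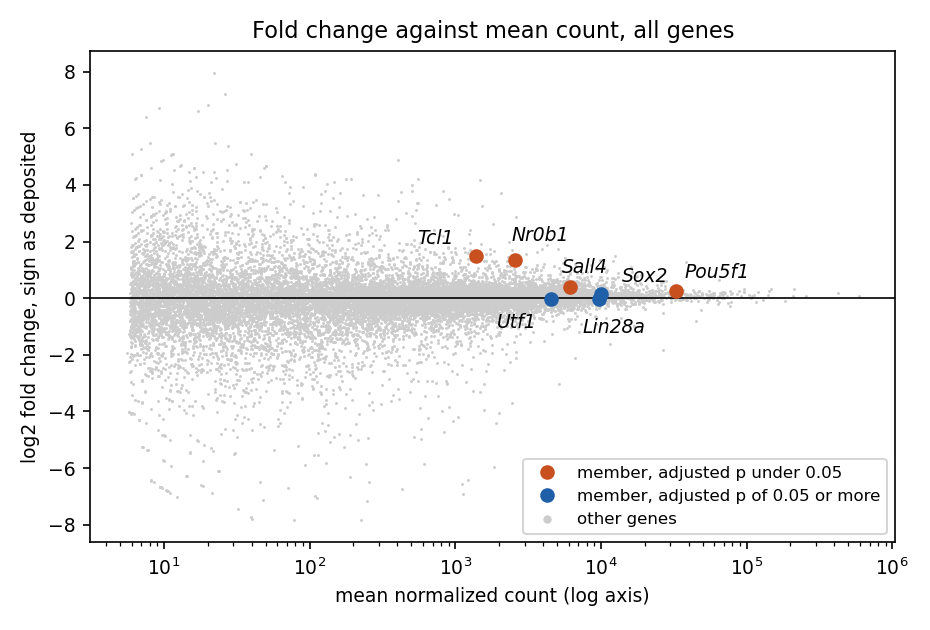
Log2 fold change against the mean normalized count (log axis) for every gene of the authors' deposited table, with the 7 genes in colour. All 7 lie at counts above 1000, where the spread of fold changes is narrower, and Tcl1 and Nr0b1 stand at its upper edge.

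Since genes of the same libraries share errors, differences between the 7 are given with intervals that treat their standard errors as independent, as a description without a test. Nr0b1 stood above the next gene below it, Sall4, by 0.98 on the log2 scale (0.63 to 1.32), the only step between neighbours in the order whose interval excluded 0. Tcl1 exceeded Nr0b1 by 0.12 (-0.42 to 0.66), so the order of these 2 is not resolved. From Sall4 down, the steps were 0.13 to Pou5f1, 0.12 to Sox2, 0.17 to Utf1 and 0.01 to Lin28a, all with intervals across 0. Of the 21 pairs, 12 had an interval above 0. These are the 10 pairs of Nr0b1 or Tcl1 with each of the other 5 genes, Sall4 with Utf1 (0.42, from 0.10 to 0.74) and Sall4 with Lin28a (0.44, from 0.07 to 0.80).

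Levels of the genes can be compared only per length, for which the mean normalized count of the authors' deposited table was divided by the length of the longest GENCODE M21 transcript. Pou5f1 stood at 24090 counts per kilobase, Sox2 at 4903, Utf1 at 3686, Lin28a at 2769, Nr0b1 at 1429, Sall4 at 1209 and Tcl1 at 991. The range was 24.3-fold. The 3 genes with the lowest level per length, Nr0b1, Sall4 and Tcl1, were also the 3 with the highest fold changes. The order of Sall4 against Pou5f1 and Sox2 was not resolved, however (0.13, from -0.14 to 0.39, and 0.25, from -0.07 to 0.57). By mean count Sall4 (6131) stood above Utf1 (4522), so no link of level and fold change is drawn.

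The deposited standard error carries what the table holds on variation between libraries. For 5 of the 7 genes it was above the 80th percentile of the 500 genes nearest in mean count. Lin28a stood at the 93.6th percentile (0.16 against a median of 0.10), Nr0b1 at the 87.4th, Utf1 at the 84.8th and Sox2 at the 82.4th, beside Tcl1. Sall4, at the 28.6th, had a standard error usual for its level. Pou5f1 stood at the 57.0th, but its 500 genes were simply the most abundant others, with mean counts from 11140 to 587461. Which libraries account for the wider errors was not analysed here.

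**Figure D3:**
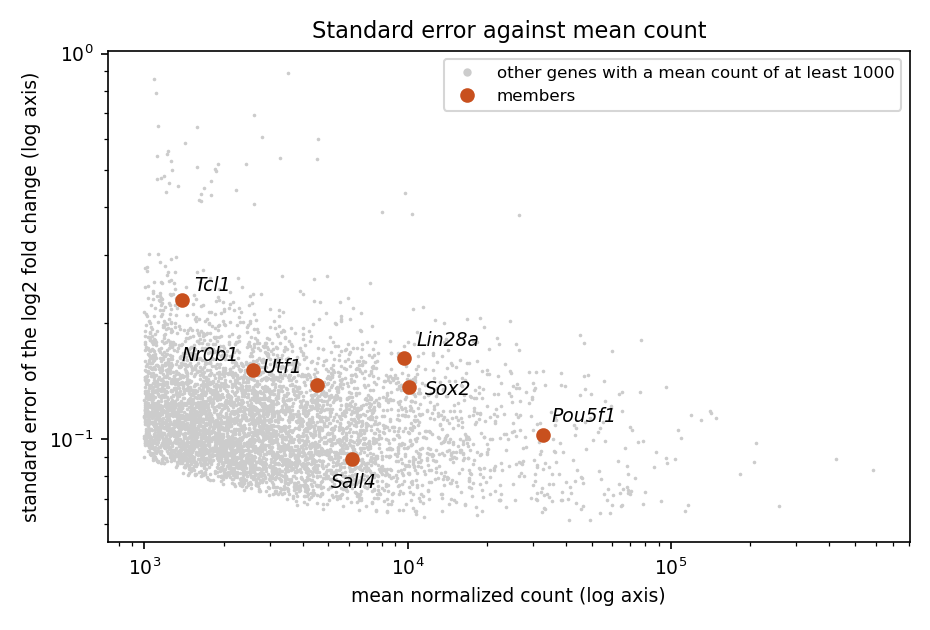
Standard error of the log2 fold change against the mean normalized count (both log axes) for genes averaging 1000 counts or more in the authors' deposited table, with the 7 genes in colour. Tcl1, Lin28a, Nr0b1, Utf1 and Sox2 lie in the upper part of the cloud, Pou5f1 near its middle and Sall4 in its lower part.

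Calls in the lists of related genes are set against the 14.6% positive and 15.9% negative calls among every gene listed in the authors' deposited table. Relatives of the 2 core factors were called in both directions. Of 19 POU and SOX family genes with a row, 5 (26.3%) were called positive and 5 (26.3%) negative in the authors' deposited table, and the median log2 fold change was -0.08. Pou3f1 (OCT6), a factor of the primed epiblast, had the lowest value at -2.66 ± 0.18 (SE) in the authors' deposited table. Pou2f2 and Pou2f3, which encode OCT2 and a factor of tuft cells, stood at 1.46 and 1.94 with standard errors of 0.24 and 0.39 in the authors' deposited table, at mean counts of only 98.9 and 39.7. Pou4f2 was also called, at 1.31, whereas Pou2f1 (OCT1), the ubiquitous octamer binder, had 0.10 and Pou6f1 0.49, both without a call.

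Among SOX genes, Sox3, Sox21 and Sox13 were called negative in the authors' deposited table, at -1.66, -1.36 and -0.63, and Sox11 was called negative by 1.99-fold. SOX3 belongs to the same subgroup as SOX2, and SOX11 and SOX21 are factors of the nervous system among other tissues. Sox1, the third gene of the SOX2 subgroup and a marker of neural precursors, was called positive at 1.01 ± 0.22 (SE) in the authors' deposited table, at a mean count of 138. Sox15, whose protein can also pair with OCT4, was called positive at 0.59 (DESeq2 adjusted p-value 0.0350), a call lost after ribosomal centring (0.50, adjusted p-value 0.0838). The other 7 SOX genes were not called, with values from -0.75 (Sox18) to 0.20 (Sox12) in the authors' deposited table: Sox6 at -0.44, Sox10 at -0.37, Sox8 at -0.18, Sox4 at -0.08 and Sox7 at 0.07. The highest mean normalized counts among these POU and SOX genes in the authors' deposited table were 4365 for Pou2f1 and 1322 for Sox12.

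Sall1, which shares zinc fingers and partners with Sall4, was called positive in the authors' deposited table at 0.74 ± 0.098 (SE) (DESeq2 adjusted p-value 1.48e-12). Sall2 was called negative at -1.07 ± 0.14 (SE) in the authors' deposited table (DESeq2 adjusted p-value 4.17e-12), and Sall3 stood at 0.33 without a call. Of the 17 genes of the list, the authors' deposited table had 2 called positive (11.8%) and 3 negative (17.6%), around a median of 0.01, shares near those of all genes. The remodelling subunit Chd3 had -1.36, while its abundant counterpart Chd4 had -0.06 without a call in the authors' deposited table. Mta1 and Mta3, alternative NuRD subunits, were called in opposite directions, at -0.32 and 0.35.

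LIN28B, the paralog of LIN28A, also blocks let-7. In the authors' deposited table Lin28b was called negative at -1.03 ± 0.12 (SE) (DESeq2 adjusted p-value 2.28e-17), at a mean count of 2404, beside the uncalled -0.05 of Lin28a. Of the 28 genes of the LIN28 and let-7 list with a row, the authors' deposited table had 7 called negative (25.0%) and 1 positive (3.57%), around a median of -0.10. The called negative genes were led by Hmga2 at -2.52 and Ccnd2 at -1.34, which are targets of let-7, and included Cdk6 at -0.48. Most genes of the list were not called, among them Ccnd1 at 0.38, Myc at -0.12, Nras at -0.11 and Igf2bp1 at -0.08. Tut4 and Tut7, the uridylyl transferases that act with LIN28A on let-7 precursors, had -0.14 and -0.10 without a call in the authors' deposited table. The positive gene, Ago1, lay near the threshold, at 0.21 (DESeq2 adjusted p-value 0.0483), and was not called after ribosomal centring (0.12). Mature let-7 was not measured by these libraries of polyadenylated RNA.

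Kinases on which TCL1 acts did not share 1 sign. Akt1 was called negative in the authors' deposited table at -0.71 ± 0.11 (SE), and Akt2 was called positive at 0.31 ± 0.11 (SE). Of the 25 genes of the TCL1 and PI3K-AKT list with a row, the authors' deposited table had 10 called negative (40.0%) and 5 positive (20.0%), around a median of -0.21. After ribosomal centring, Akt2 lost its call (0.22, adjusted p-value 0.135) and 1 of the 5 positive calls of the list was left. Foxo4, a transcription factor that AKT inhibits, was among the negative genes at -0.80. The largest positive value was 2.00 ± 0.25 (SE) for Inpp5d, which encodes the phosphatase SHIP1, in the authors' deposited table. Mtcp1, the relative of Tcl1 with a row, had -0.38 ± 0.25 (SE) and was not called, and the Tcl1b genes were not analysed here.

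UTF1 binds genes that also carry the Polycomb mark and limits its deposition. Of the 17 genes of the UTF1 and PRC2 list, the authors' deposited table had 4 called positive (23.5%) and 1 negative (5.88%), around a median of 0.16. The positive genes were accessory or core subunits of Polycomb repressive complex 2: Epop at 0.92, Mtf2 at 0.73, Eed at 0.57 and Jarid2 at 0.47. The catalytic subunit gene Ezh2 had 0.08 and Suz12 0.10, without a call in the authors' deposited table. The negative gene was Cdkn2a at -0.92, at a mean count of 58.0. After centring on the ribosomal protein genes, 3 genes of this list were called negative.

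Nuclear receptors and cofactors related to NR0B1 were called positive for 6 (37.5%) and negative for 3 (18.8%) of 16 genes in the authors' deposited table, around a median of 0.09. Esrrb, a receptor of the pluripotency circuit that NR0B1 binds, had 0.91 ± 0.13 (SE). Nr5a2 (LRH1), which activates Nr0b1 and Pou5f1 through half-sites of the AGGTCA kind, had 0.89 ± 0.12 (SE) in the authors' deposited table. Their cofactor Ncoa3 had 0.67. The negative genes included Rxrg at -2.50, at a mean count of 55.8, and Rxra at -0.54 in the authors' deposited table.

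The rest of the circuit was mostly called positive, in lists chosen with earlier results of these data known. Among genes averaging 1000 counts or more in the authors' deposited table, 18.3% were called positive. Of 14 textbook targets of OCT4 and SOX2 other than the 7 genes, 11 were called positive (78.6%) and 1 negative (7.14%) in the authors' deposited table, and their median log2 fold change was 0.70. Spp1 (osteopontin) was 2.46-fold positive in the authors' deposited table, Zfp42 (REX1) 2.14-fold and Fbxo15 1.97-fold, with standard errors between 0.092 and 0.098 on the log2 scale. Lefty1, which also depends on Nodal signalling, was called negative at -2.12 ± 0.41 (SE). The targets without a call were Lefty2, at -1.21 ± 0.55 (SE) (DESeq2 adjusted p-value 0.0810), and Tcf7l1, at 0.17. Of 33 further pluripotency factors, the authors' deposited table had 26 called positive (78.8%) and 3 negative (9.09%), around a median of 0.67. The factor Tbx3 had 2.39, and the negative genes were Fgf5 at -7.17, Dppa3 at -0.76 and Otx2 at -0.56 in the authors' deposited table. Fgf5 and Otx2 are also counted among the primed epiblast markers below. A difference between these lists and the 7 genes was not tested. The lists share 8 genes, 57.1% of the targets and 24.2% of the factors.

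**Figure D4:**
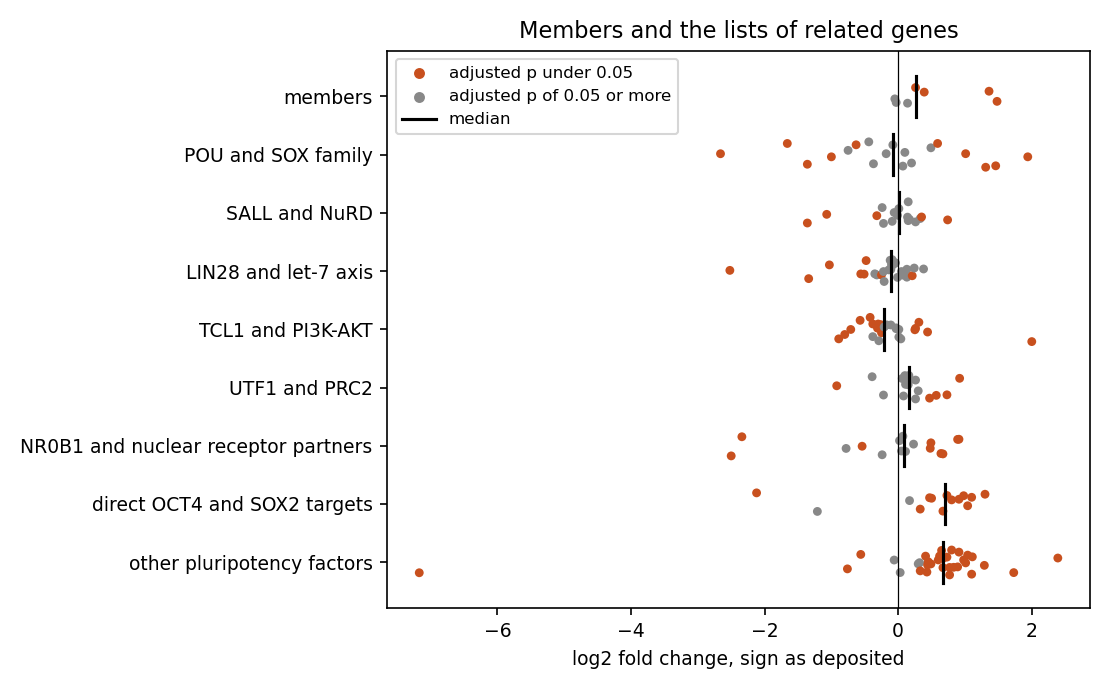
Log2 fold change in the authors' deposited table of the 7 genes and of each gene in the lists of related genes (points, spread vertically for visibility), with the median of each list as a black line. The targets and the other pluripotency factors have medians of 0.70 and 0.67, above the 0.26 of the 7 genes, and the remaining lists have medians between -0.21 and 0.16.

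Markers of the labelled cell type and of other cell types were looked up, as a description and not as a test of the label. Of 8 embryonic stem cell markers 7 had a row, and 2 of these, Pou5f1 and Sox2, are among the 7 genes described. The other 5 had a median mean count of 10034 in the authors' deposited table, and Fut4 was the lowest, at 41.8. Of these 5 in the authors' deposited table, 4 were called positive, around a median log2 fold change of 0.73, and Fut4 was called negative at -2.61 (DESeq2 adjusted p-value 7.29e-07). Markers of other cell types were mostly negative. Of the rows in the authors' deposited table, 7 of 9 trophectoderm, 5 of 5 primed epiblast, 5 of 7 fibroblast and 2 of 6 primitive endoderm markers were called negative and 0 positive, with medians of -3.68, -2.66, -1.95 and -0.95. At an unadjusted p-value under 0.05 from DESeq2, 0 of these markers were positive as well. Among all genes of the authors' deposited table, 15.9% were called negative and 14.6% positive. Median mean counts were 270.8 for trophectoderm, 814.3 for primed epiblast, 51.92 for fibroblast and 12.41 for primitive endoderm markers. Some negative calls rested on low mean counts, such as Col1a2 at 10.1, Col1a1 at 20.9, Krt7 at 25.6 and Hand1 at 25.8. The summed mean count in the authors' deposited table was 6565 for the 9 trophectoderm markers and 67768 for those 5 embryonic stem cell markers. It was 17247 for the 5 primed epiblast markers, of which Dnmt3b had 14616, and Dppa5a had 38163 of the stem cell sum. These sums are not divided by length and do not compare levels, and sums per group were not analysed here. Among 16 genes listed as markers of the MERVL-positive state, Calcoco2 and Eif1a had a row, and the other 14 were not analysed here. Both were called positive, at 3.10 and 0.26 in the authors' deposited table. Eif1a had a mean count of 10229, against 536 for Calcoco2, and is not read here as a marker of a rare state. That leaves Calcoco2 alone. The part of these cell types in the values of the 7 genes was not tested.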

How the data were processed

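Per the submitters' processing notes, the authors used FastQC 0.12.1, Trimmomatic 0.39, STAR 2.7.11b, RSEM 1.3.3, DESeq2 1.45.3 and the GRCm39 build. The annotation release, strand setting, model formula and reference group are not given in the sources used here. The mean normalized count deposited by the authors is a signal pooled over libraries. Fold changes and standard errors were deposited as log2 values, per the file headers. The statistic the authors deposited is a score, equal to fold change over standard error within 5.77e-07. The p-value and adjusted p-value are used as deposited. All 6 count columns matched no sample and were not used, so depth is unknown and edgeR was not run.

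Intervals are 1.96 standard errors on either side. For recentred values, Wald p-values and Benjamini-Hochberg adjustment were recomputed. GC content and longest transcript length came from GENCODE M21 (GRCm38) for 98.2% of genes, with a loess span of 0.3 (R 4.3.3). Python 3.11.15 and scipy 1.17.1 were used otherwise. Scripts were tested on simulated data. Genes named from a list were the 3 with the smallest adjusted p-value under 0.05 in each direction, and relatives of the 7 genes. Others were chosen after their values were seen, and some genes that the rule names are not reported here. The genes and lists were chosen with earlier results of these data known, and the promoter motifs after the sequences were seen. Per the labels, the replicates are biological and were collected on different dates.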

Additional observations from a re-analysis of the deposited data

How the results depend on the processing

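Tcl1, Nr0b1 and Sall4 stayed called positive, and Sox2 uncalled, under both centrings, the recomputed adjustment and both forms of the GC and length trend. Pou5f1 lost its call at 0.17 after centring on 75 ribosomal protein genes, a shift of 0.093, and at 0.22 with the local quadratic trend, an alternative chosen after seeing the data. The sign of Lin28a turned to 0.03 with the local linear and 0.02 with the local quadratic trend, and that of Utf1 to 0.08 and 0.06, without a call. The causes were not tested. Centring on ribosomal protein genes also ended the calls of 9 list genes, Sox15, Ago1, Akt2, Eras, Pdpk1, Tsc2, Rif1, Zfp281 and Zscan10, and made 7 others negative calls, Arid3b, Hmga1, Mycn, Nr6a1, Phf19, Rbbp7 and Rheb. With a GC and length trend removed, Sall4 passed the limit of 0.5, at 0.54 (local linear) and 0.53 (local quadratic). Of the 7 genes, 2 were called positive at an absolute log2 fold change over 0.5 and 2 at over 1, which the stricter limit itself produces.

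Among the lists, an adjusted p-value under 0.01 left 3 positive POU and SOX genes, 0 positive LIN28 and let-7 genes, 1 positive and 6 negative TCL1 and PI3K-AKT genes, and 0 negative UTF1 and PRC2 genes. An absolute log2 fold change over 0.5 left 1 positive SALL and NuRD gene, 0 positive LIN28 and let-7 genes, and 1 positive and 4 negative TCL1 and PI3K-AKT genes. Ribosomal centring left 0 positive LIN28 and let-7 genes and 1 positive TCL1 and PI3K-AKT gene, and gave 3 negative UTF1 and PRC2 genes. A minimum mean count of 50 moved no count by over 1.5 times.

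No paired analysis was possible because no column of values per sample matched a label. For the same reason, edgeR, other size factors, count filters and leaving out replicates were not run, and whether 1 library decides any value is not answered here.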

Other observations

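The genes next to the 7 along the chromosome were looked up in GENCODE M21, and their values, signs included, were taken as the authors deposited them. Of 14 next measured genes on either side, 3 were called positive, 1 negative and 10 were not called. The called share, 28.6%, is near the 30.5% of all genes. Kndc1, which ends 2.25 kb before Utf1 on the same strand, had a log2 fold change of 1.49 ± 0.21 (SE) in the authors' deposited table (DESeq2 adjusted p-value 9.05e-11), beside -0.03 for Utf1. On the other side, the non-coding gene Gm16201, 5.28 kb away, had -1.98 ± 0.56 (SE) at a mean count of 20.7.

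Atp9a, 5.92 kb from Sall4 on the same strand, had 0.66 ± 0.17 (SE) in the authors' deposited table (DESeq2 adjusted p-value 5.93e-04), beside 0.39 for Sall4. Mageb4, the next measured gene after Nr0b1 at 54.3 kb, had 4.04 ± 0.94 (SE) at a mean count of 11.4 in the authors' deposited table. Tcf19, 1.96 kb from Pou5f1 on the opposite strand, had -0.20 and was not called. Distances are on GRCm38 and may differ on the authors' build.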
